A study of Homo sapiens with 12 samples.

Results

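Polyadenylated RNA of the human anaplastic thyroid carcinoma lines KHM-5M and TTA-1 was compared while both lines were under the ERK inhibitor GDC-0994. The comparison used 6 of the 12 RNA-seq libraries of the study, 3 per line, taken by the line and treatment that their labels give. Anaplastic carcinoma has lost most features of the thyroid cell it comes from. The label of KHM-5M gives BRAF V600E, which locks the BRAF kinase in its active state, and RPMI-1640 as its medium. For TTA-1 the label gives wild-type BRAF, with DMEM as the medium. Both media held 10% serum, and the treated cells received 1 µM GDC-0994 for 24 hours. The other 6 libraries, 3 per line, received the vehicle DMSO for the same time, and share no library with the comparison under the inhibitor. Each BRAF genotype is represented by 1 line in 1 medium, so genotype, line and medium cannot be told apart. The labels do not say that the libraries of a group come from separate cultures, so p-values measure the spread between these libraries, which may be technical.

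GDC-0994, also named ravoxertinib, blocks the ERK kinases. These stand at the end of the cascade in which RAS activates RAF, RAF activates MEK and MEK activates ERK. Active ERK switches on transcription factors of the ETS and AP-1 families, raises cyclin D1 and drives cells from G1 into DNA replication. It also switches on its own brakes, the DUSP phosphatases and Sprouty proteins, whose transcripts are widely read as a gauge of pathway output. Thyroid cancers with BRAF V600E signal through this cascade without needing a growth factor.

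Total counts per library were 15218155 to 18389915 in KHM-5M and 14952970 to 15652517 in TTA-1 under the inhibitor, and 15996718 to 17397430 in DMSO. Mitochondrially encoded genes took 3.90 to 4.32% of the counts in KHM-5M and 4.05 to 4.89% in TTA-1 under the inhibitor. Replicate libraries under the inhibitor differed by a mean absolute log2 difference of 0.140 to 0.217. In DMSO it was 0.127 to 0.296, with the largest between TTA-1 replicates 1 and 2. Levels below are CPM, the counts of a gene relative to the total of its library as scaled by TMM, values after ± are the SD over 3 libraries (n = 3) for a level and the standard error for a log2 fold change, and positions are on GRCh38. A positive log2 fold change means higher in KHM-5M, and a gene is said to be higher or lower when edgeR's quasi-likelihood test gave a Benjamini-Hochberg adjusted p below 0.05 over all genes tested.

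The label of thyroid carcinoma was checked on 16 markers of the thyroid follicular cell. Under the inhibitor 7 of them had no count in KHM-5M and 5 had none in TTA-1, and the gene for thyroglobulin (TG), the precursor of thyroid hormone, had 0 counts in KHM-5M and 2 counts in TTA-1. PAX8, a transcription factor that thyroid cells need, had 120.2 ± 4.08 CPM in KHM-5M and 3.65 ± 0.626 CPM in TTA-1. DIO2, an enzyme that activates thyroid hormone, had 2.94 ± 0.705 CPM in KHM-5M and 431 ± 12.7 CPM in TTA-1. TG was thus at or near 0 in both lines, while PAX8 was high in KHM-5M and DIO2 in TTA-1.

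Under GDC-0994 the lines differed at most of their genes. Of 16218 genes tested, 6650 (41.0%) were higher and 6347 (39.1%) lower in KHM-5M, together 12997 or 80.1%. The median log2 fold change over all genes was 0.04. The balance of both directions depended on the scaling. Under upper quartile scaling 7348 genes were higher and 5628 lower, under library totals 7244 and 5736, and under DESeq2 size factors 6857 and 6098. With limma on log2(FPKM + 1) the counts were near-equal, 5545 higher and 5522 lower. With a log2 fold change of at least 1 in size as a further condition, 8170 genes (50.4%) were counted, 4491 (27.7%) higher and 3679 (22.7%) lower in KHM-5M. The 3 libraries of one line did not overlap the 3 of the other at 13296 genes (82.0%). Against so wide a background, a gene list is read below by its balance of higher and lower members and by its median.

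Most of this difference was there in DMSO too. In DMSO 12405 genes (76.5%) differed between the lines, 6430 (39.6%) higher and 5975 (36.8%) lower in KHM-5M. The same direction was called in both treatments for 10645 genes, 81.9% of those called under GDC-0994 and 85.8% of those called in DMSO. The log2 fold changes of both treatments had a Pearson correlation of 0.925 across the 16218 genes, and genes are no independent replicates. The change of the line difference was then tested per gene, as the line difference under GDC-0994 minus that in DMSO. It was called for 4527 genes (27.9%), 1995 positive (12.3%) and 2532 negative (15.6%). This balance depended on the scaling, with 2193 positive and 2350 negative under DESeq2 size factors and 2403 and 2208 under upper quartile scaling. Of the 10645 genes called in the same direction in both treatments, 2725 also had a called change. Among these, 1929 had a larger and 796 a smaller difference under the inhibitor. For 425 genes (2.62%) the lines changed order, 272 from higher in KHM-5M to lower and 153 from lower to higher.

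**Figure D1:**
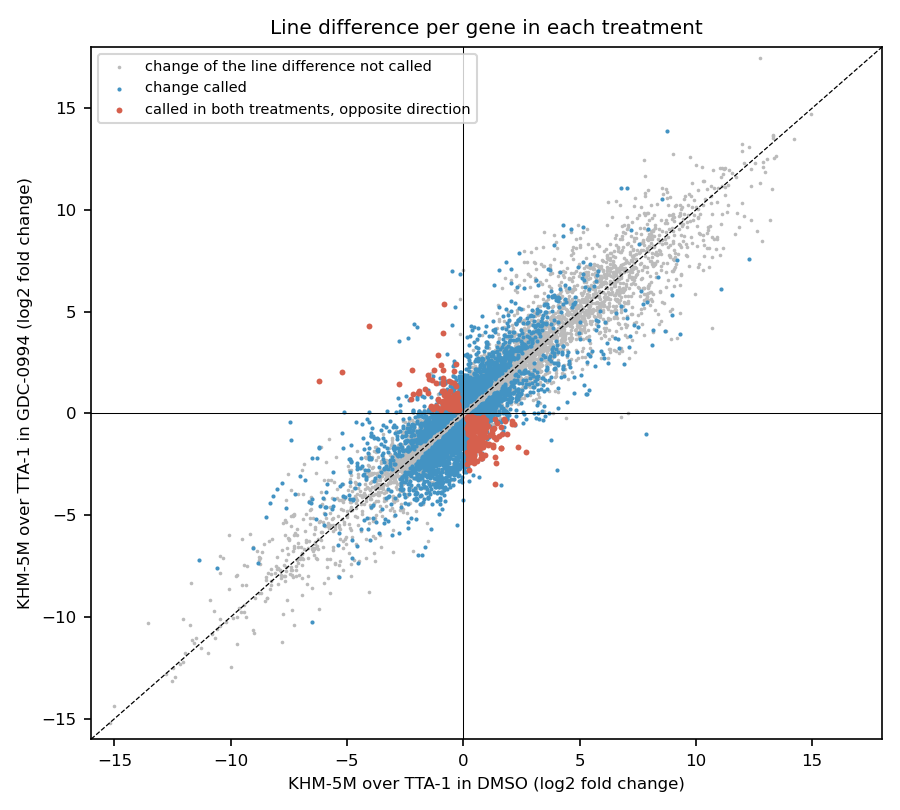
Log2 fold change of KHM-5M over TTA-1 in DMSO (horizontal axis) and under GDC-0994 (vertical axis) for 16218 genes, each point a gene. Most points lie near the dashed line of equality (Pearson correlation 0.925), blue points are genes whose change of the line difference was called, and the 425 red points were called in both treatments with opposite direction.

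The order of the lines in the mean level of ERK output genes turned around. The mean log2(CPM + 1) of the 10 MAPK output genes was 3.23, 3.28 and 3.17 in the KHM-5M libraries and 3.87, 3.94 and 3.66 in the TTA-1 libraries under GDC-0994. All KHM-5M libraries were thus below all TTA-1 libraries, with means of 3.23 ± 0.06 and 3.82 ± 0.14 and a difference of -0.59. In DMSO the order was the reverse, with 5.80 ± 0.03 in KHM-5M, 4.68 ± 0.02 in TTA-1 and a difference of 1.12. The line difference became more negative at 9 of the 10 genes, where 15.6% of all genes tested did so, with a median change of -2.05 against 0.02 over all genes. Of the 10 genes 2, ETV4 and CCND1, were called in both treatments with opposite direction, as were 2.62% of all genes tested. The most negative log2 fold change under the inhibitor was -4.16 at DUSP4, a gene already lower in KHM-5M in DMSO. As members called under the inhibitor, 5 were higher and 5 lower in KHM-5M. Their median of -0.13 became 0.03 under upper quartile scaling and 0.00 under library totals, so its sign depended on the scaling, while the difference of the mean levels was -0.55 to -0.46 under the other scalings and log scales tried.

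ETV4 (ENSG00000175832, chromosome 17, 43527844 to 43579620), an ETS factor of the PEA3 group that ERK switches on, had 3.22, 4.04 and 3.01 CPM in KHM-5M and 12.1, 11.8 and 8.85 CPM in TTA-1 under GDC-0994. In DMSO it had 128, 123 and 129 CPM in KHM-5M and 26.2, 21.8 and 26.5 CPM in TTA-1. The groups did not overlap in either treatment, and the line with more ETV4 was KHM-5M in DMSO and TTA-1 under the inhibitor. Its log2 fold change was -1.67 ± 0.15 (adjusted p = 2.00e-08) under GDC-0994 and 2.35 in DMSO, a change of -4.01 ± 0.19 (adjusted p = 9.66e-11). CCND1 (ENSG00000110092, chromosome 11, 69641087 to 69654474), the gene of cyclin D1, crossed over in the same way. It had 83.1, 81.3 and 73.6 CPM in KHM-5M and 139.8, 139 and 124 CPM in TTA-1 under the inhibitor, against 532, 547 and 510.0 and 220.1, 229.8 and 204 CPM in DMSO. All KHM-5M libraries were below the TTA-1 libraries with GDC-0994 and above them without it. The log2 fold change was -0.76 ± 0.08 under GDC-0994 (adjusted p = 6.94e-08) and 1.28 in DMSO.

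ETV5 (ENSG00000244405, chromosome 3, 186046308 to 186110318), the other PEA3 factor of the list, did not pass the test in DMSO, where the log2 fold change was 0.01 (adjusted p = 0.943). Under the inhibitor it had 5.64, 6.47 and 3.99 CPM in KHM-5M and 38.2, 41.3 and 40.5 CPM in TTA-1, a log2 fold change of -2.89 ± 0.12 (adjusted p = 1.24e-12) with no overlap. DUSP4, a nuclear phosphatase of MAP kinases, had 1.69, 1.49 and 1.84 CPM in KHM-5M and 31.7, 31 and 27.2 CPM in TTA-1. This gap of -4.16 ± 0.14 log2 was wider than the -2.04 log2 of DMSO. EPHA2, an ephrin receptor, was lower in KHM-5M (-1.60 ± 0.08 log2), after -0.87 in DMSO.

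Other members of the list were higher in KHM-5M. SPRY2 (ENSG00000136158, chromosome 13, 80335976 to 80340951), a Sprouty inhibitor of receptor signalling, had 10.5, 9.13 and 10.4 CPM in KHM-5M and 3.0, 3.01 and 2.28 CPM in TTA-1 under the inhibitor. Every KHM-5M library was above every TTA-1 library, with a log2 fold change of 1.85 ± 0.13 (adjusted p = 1.08e-09), down from 4.32 in DMSO. SPRY4 (0.63 ± 0.17) and PHLDA1 (0.49 ± 0.08), a pleckstrin-domain protein, also stayed higher in KHM-5M with smaller gaps than in DMSO (2.01 and 1.35). DUSP6 (ENSG00000139318, chromosome 12, 89347232 to 89353271), the cytoplasmic ERK phosphatase, had 2.11, 2.21 and 1.35 CPM in KHM-5M and 0.600, 1.14 and 0.0691 CPM in TTA-1. The TTA-1 libraries varied most, and the log2 fold change of 1.64 ± 0.41 became 2.50 without TTA-1 GDC-0994 replicate 2. The change from DMSO at DUSP6, -2.06 ± 0.54 (adjusted p = 0.00891), was -1.20 and no longer called without that library (adjusted p = 0.217). EPHA4, with 1.0, 0.885 and 1.47 CPM in KHM-5M and 0.133, 0.602 and 0.415 CPM in TTA-1, was called higher in KHM-5M (1.52 ± 0.58, adjusted p = 0.0238). That call was lost without KHM-5M GDC-0994 replicate 3 (adjusted p = 0.0759) or TTA-1 GDC-0994 replicate 1 (0.0990). The change at EPHA4 was 2.52 ± 1.10 (adjusted p = 0.103), and was called without TTA-1 DMSO replicate 1 (adjusted p = 0.0464) or 2 (0.0418), and 0.82 without TTA-1 DMSO replicate 3 (adjusted p = 0.766).

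**Figure D2:**
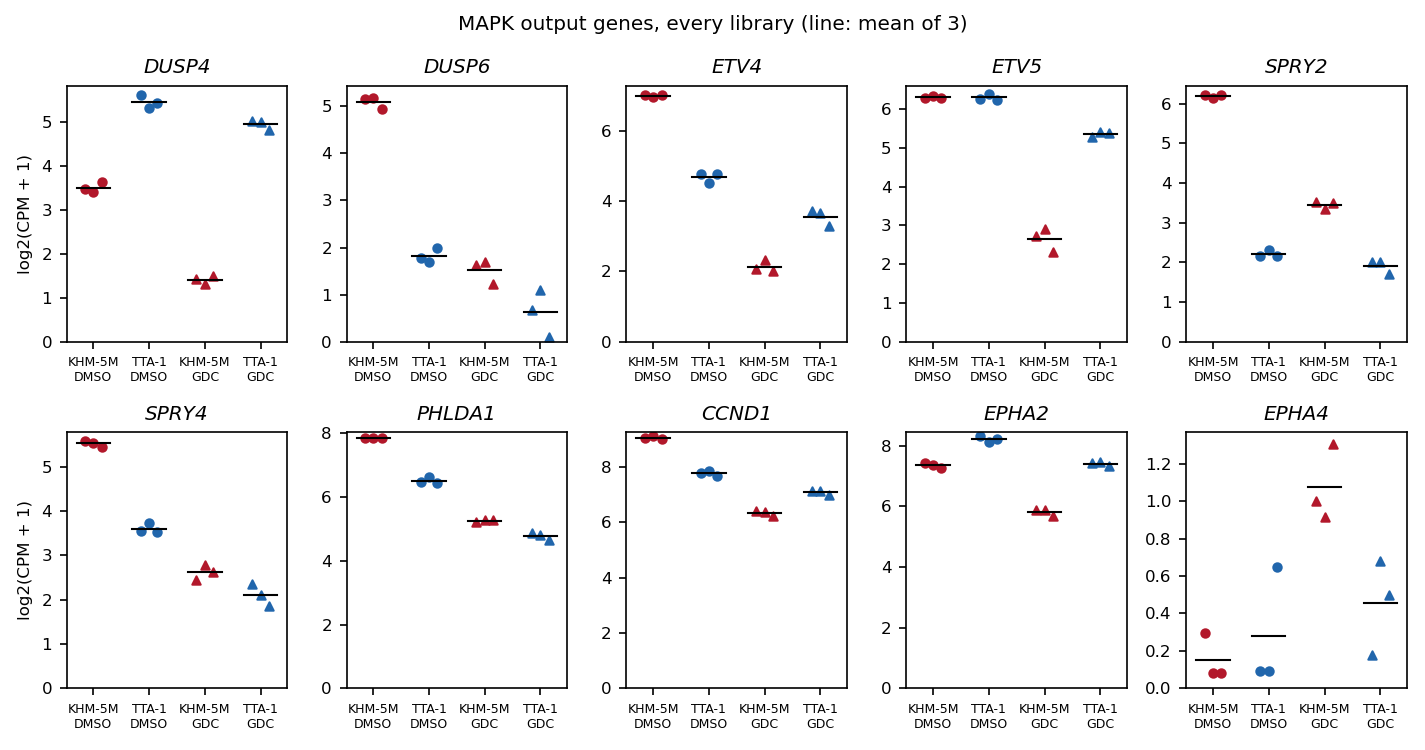
Level of each of the 10 MAPK output genes in every library, as log2(CPM + 1) on the vertical axis, with KHM-5M in red, TTA-1 in blue, DMSO as circles, GDC-0994 as triangles and the mean of 3 libraries as a line. ETV4 and CCND1 are higher in KHM-5M in DMSO and lower under GDC-0994, while SPRY2 stays higher in KHM-5M in both.

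Most members of a second list, of ERK feedback and PEA3 genes, stood higher in KHM-5M, as they did in DMSO. Whether each member answers to ERK in these lines was not tested. The list of 20 further ERK feedback and PEA3 genes had 14 higher and 3 lower under the inhibitor (median 1.09), and 14 higher and 4 lower in DMSO (median 0.82). The change was positive at 4 and negative at 4, against 12.3% and 15.6% of all genes tested. DUSP8, a phosphatase of stress kinases, had 42.7 ± 2.40 CPM in KHM-5M and 1.73 ± 0.584 CPM in TTA-1 (4.62 ± 0.18 log2). PHLDA3 was higher by 4.46 ± 0.18. TRIB2, a Tribbles pseudokinase, had 475 counts in KHM-5M and 2 in TTA-1, a ratio of 198 (95% counting interval 54.5 to 1638). Lower in KHM-5M were DUSP2, a nuclear MAP kinase phosphatase (-2.87 ± 0.22), SPRED2, which holds RAF in check (-0.90 ± 0.09), and ERRFI1, an inhibitor of the EGF receptor (-0.59 ± 0.07).

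The immediate-early and AP-1 genes, fast responders to growth signals, were split. Of 21 tested, 9 were higher and 9 lower in KHM-5M (median 0.21, and -0.09 and -0.10 with limma on log2(FPKM + 1) and log2(FPKM + 0.1)). The counts were 11 and 7 under upper quartile scaling, and 11 and 9 under library totals. JUND, an AP-1 subunit, had 277 ± 16.7 CPM in KHM-5M and 55.2 ± 3.30 CPM in TTA-1 (2.32 ± 0.11), and JUN (0.96 ± 0.10) and FOSL2 (0.86 ± 0.09) were higher as well. MYC, which drives growth and ribosome synthesis, had 67.7, 59.5 and 61.5 CPM in KHM-5M and 455, 433 and 362 CPM in TTA-1. Its libraries did not overlap, and its log2 fold change of -2.73 ± 0.10 (adjusted p = 1.01e-13) was close to the -2.57 of DMSO, with a change of -0.15 ± 0.13 (adjusted p = 0.421). KLF4, a zinc finger factor (-3.34 ± 0.18), and MAFG, a small MAF protein (-0.78 ± 0.07), were lower too. EGR1, FOSL1 and KLF6, named after their values were seen, changed order between the treatments, 3 of 21 against 2.62% of all genes tested.

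The genes of the cascade itself differed by member. MAPK3 (ENSG00000102882, chromosome 16, 30114105 to 30123506), which encodes ERK1, a target of the inhibitor, had 101, 97.7 and 97 CPM in KHM-5M and 23.5, 24.2 and 18.4 CPM in TTA-1, a log2 fold change of 2.16 ± 0.13 (adjusted p = 1.39e-10). Every KHM-5M library was above every TTA-1 library. Among the RAS genes, HRAS was higher (0.53 ± 0.10) and NRAS lower (-1.47 ± 0.12). Among the RAF genes, BRAF was higher in KHM-5M (0.36 ± 0.12) and ARAF lower (-1.76 ± 0.10). In DMSO the log2 fold change of BRAF was 0.00, and the change of 0.36 ± 0.17 was not called (adjusted p = 0.132).

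MAP2K1, which encodes MEK1, was lower in KHM-5M (-0.84 ± 0.07), as were the scaffold KSR1 (-0.92 ± 0.14), the exchange factor SOS1 (-0.46 ± 0.14), the RAS inhibitor NF1 (-0.46 ± 0.10) and RPS6KA3, a kinase that ERK activates (-0.45 ± 0.12). RPS6KA1, of the same kinase family, had 71.1 and 71.8 CPM (log2 fold change -0.01 ± 0.09, adjusted p = 0.890). MAP2K2, which encodes MEK2, was higher (0.29 ± 0.13, adjusted p = 0.0441). This call was lost without KHM-5M GDC-0994 replicate 1 (adjusted p = 0.115) or 2 (0.0917), or TTA-1 GDC-0994 replicate 2 (0.0736) or 3 (0.105). RASA1, which switches RAS off, was higher (0.32 ± 0.12, adjusted p = 0.0285), and not without KHM-5M GDC-0994 replicate 3 (adjusted p = 0.0944). Of the 16 members 6 were higher and 9 lower, and the line difference changed from DMSO at 4, all in the negative direction. Over all genes tested it changed at 27.9%, with 15.6% in the negative direction.

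Cell cycle genes differed in one direction. All 40 DNA replication and E2F target genes were lower in KHM-5M under GDC-0994, with a median log2 fold change of -2.70, and all 34 mitosis genes were lower as well, with a median of -2.52. In DMSO the same lists were mixed: 11 replication genes were higher and 22 lower in KHM-5M (median -0.25), and 9 mitosis genes were higher and 14 lower (median -0.07). The change of the line difference was negative and called for all 40 and all 34 genes, against 15.6% of all genes tested. The libraries of the lines did not overlap at any gene of either list, and at 82.0% of all genes tested. With each library left out in turn the count of lower mitosis genes was 33 or 34, with 33 without KHM-5M GDC-0994 replicate 2 or 3 or TTA-1 GDC-0994 replicate 3. In bulk RNA a smaller share of cycling cells and less of these transcripts per cell cannot be told apart.

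The mean log2(CPM + 1) over the replication list was 3.77 to 3.85 in the KHM-5M libraries and 6.42 to 6.44 in the TTA-1 libraries under the inhibitor. In DMSO it was 6.05 to 6.09 in KHM-5M and 6.43 to 6.45 in TTA-1. Over the mitosis list it was 4.74 to 4.92 in KHM-5M and 7.16 to 7.19 in TTA-1 under the inhibitor, against 6.84 to 6.91 and 7.03 to 7.17 in DMSO. The KHM-5M libraries under the inhibitor stood apart from all the other libraries on both lists, and the TTA-1 libraries under the inhibitor lay near those in DMSO.

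**Figure D3:**
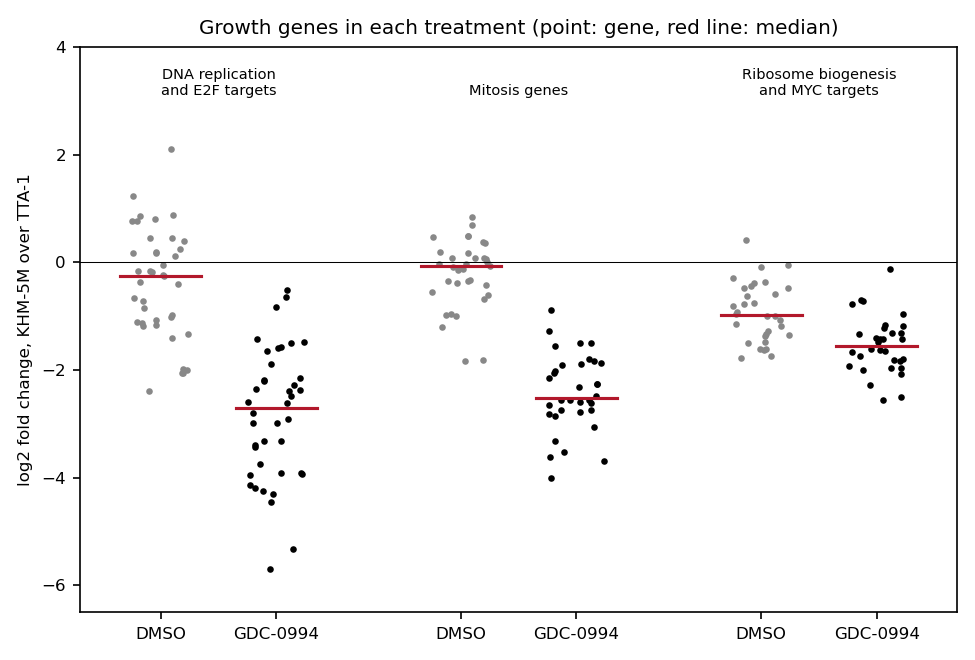
Log2 fold change of KHM-5M over TTA-1 (vertical axis) in DMSO (grey) and under GDC-0994 (black) for the replication, mitosis and ribosome biogenesis lists, each point a gene and each red line a median. All points of the first 2 lists lie below 0 under GDC-0994, where their medians are -2.70 and -2.52, and ribosome biogenesis genes are low in both treatments.

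CDC6 (ENSG00000094804, chromosome 17, 40287633 to 40304657), which loads the replicative helicase onto origins, had 12.4, 10.6 and 11.5 CPM in KHM-5M and 460.4, 458 and 461 CPM in TTA-1 under GDC-0994. In DMSO it had 83.7, 86.7 and 83.2 and 421, 470.1 and 434 CPM. The lines did not overlap in either treatment, and the gap widened from -2.38 to -5.32 ± 0.08 log2 (adjusted p = 1.12e-17), a change of -2.94 ± 0.10. ORC1, a subunit of the origin recognition complex, had 5.14 ± 0.957 CPM in KHM-5M and 113 ± 1.96 CPM in TTA-1 (-4.45 ± 0.11). MCM10, another replication initiation factor, had 5.44 ± 0.354 and 95.7 ± 5.20 CPM (-4.14 ± 0.09). The replication genes that changed order between the treatments were CCNE2, CDC45, E2F1, GINS1, LIG1, MCM5, PCNA, POLA2, POLD1, RRM1 and TK1, 11 in all, named after their values were seen. Of all genes tested 2.62% changed order.

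CCNB1 (ENSG00000134057, chromosome 5, 69167010 to 69178245), the gene of cyclin B1, had 91.8, 82.3 and 91.6 CPM in KHM-5M and 544, 560.0 and 558 CPM in TTA-1 (-2.65 ± 0.07 log2, adjusted p = 6.72e-15), after -0.60 in DMSO. TPX2 (ENSG00000088325, chromosome 20, 31739271 to 31801805), a spindle assembly factor, had 127, 128 and 127 CPM in KHM-5M and 534, 542 and 519.7 CPM in TTA-1 under the inhibitor, and 606, 592 and 569 and 492, 527 and 518 CPM in DMSO. It was among the genes that changed order, being slightly higher in KHM-5M in DMSO (0.20) and lower under the inhibitor (-2.06 ± 0.06). CCNB2, which encodes cyclin B2, was lower (-2.14 ± 0.07), a change of -1.81 ± 0.09 from DMSO. In all 9 mitosis genes changed order, against 2.62% of all genes tested: AURKA, CDC20, KIF20A, KIF4A, MKI67, NUF2, PRC1, TPX2 and UBE2C, named likewise.

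The promoters of these lists hold the motifs for which cell cycle genes are known. The windows run from 250 bases before to 50 after the start in RefSeq on GRCh38.p14, and motifs were sought on both strands. An E2F motif (TTTCCCGC, TTTGGCGC or TTTCGCGC) was in 22 of 37 matched replication promoters (59.5%) against 4.51% of the 10974 matched promoters of genes tested and 2.79% of all 27305 promoters. A CHR element, through which the DREAM complex keeps mitotic genes off in resting cells (TTTGAA or TTCGAA), was in 20 of 28 mitosis promoters (71.4%) against 10.9% and 16.6%. A CCAAT box was in 75.0% of the mitosis promoters against 36.1% of those of genes tested. Over the other lists its share ran from 9.09% (ABC transporters) to 72.7% (HOX genes), so it was not particular to mitosis genes. A match describes letters, not a bound factor. The replication list includes genes chosen as E2F targets, so its E2F share was set in part by that choice and is no result of these libraries. The promoter of CDC6 (chr17:40287629-40287928, plus strand) is shown as that of the replication gene with the smallest p, with its E2F motif in capitals, and that of CCNB2 (chr15:59104896-59105195, plus strand) with its CHR element in capitals. The promoters shown here and below were chosen because they hold the motif. Those of ORC1 and MCM10 held 0 E2F motifs, and that of CCNB1 held 0 CHR elements in this window.
CDC6: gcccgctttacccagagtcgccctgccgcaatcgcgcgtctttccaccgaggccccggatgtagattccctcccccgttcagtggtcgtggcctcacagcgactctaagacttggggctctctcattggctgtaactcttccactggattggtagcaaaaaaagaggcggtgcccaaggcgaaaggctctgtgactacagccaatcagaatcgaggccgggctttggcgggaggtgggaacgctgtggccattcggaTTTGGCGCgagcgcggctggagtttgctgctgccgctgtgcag
CCNB2: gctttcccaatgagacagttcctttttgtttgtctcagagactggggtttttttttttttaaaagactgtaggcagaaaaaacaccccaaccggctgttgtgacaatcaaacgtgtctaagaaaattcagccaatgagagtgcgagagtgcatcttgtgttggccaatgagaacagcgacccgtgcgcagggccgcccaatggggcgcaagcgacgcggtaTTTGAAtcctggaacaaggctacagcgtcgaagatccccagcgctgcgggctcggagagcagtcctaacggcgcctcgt

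Ribosome biogenesis and MYC target genes were lower in KHM-5M in both treatments, and further apart under the inhibitor. Of 32 genes, 31 were lower under GDC-0994 (median -1.55), with NOP2, at -0.12, the gene not called (adjusted p = 0.829). In DMSO 29 were lower and the other 3 not called (median -0.98). The change was negative and called for 24, against 15.6% of all genes tested. NOLC1, a nucleolar phosphoprotein, had 108 ± 3.98 CPM in KHM-5M and 608 ± 25.2 CPM in TTA-1 (-2.49 ± 0.07). SRM, spermidine synthase, had 61.8 ± 3.72 and 363 ± 29.8 CPM (-2.55 ± 0.08), and ODC1, the first enzyme of polyamine synthesis, 210.2 ± 7.72 and 793 ± 22.5 CPM (-1.91 ± 0.06, after -1.77 in DMSO). The E-box CACGTG, the motif that MYC binds, was in 11 of 27 matched promoters of the list (40.7%) against 10.0% of promoters of genes tested. Over the other lists the share ran from 0% to 36.4% (HOX genes), with 31.8% in the lysosome and autophagy list. The list includes genes chosen as MYC targets, so this share too was set in part by the choice. The SRM promoter (chr1:11059969-11060268, minus strand), of the list member with the most negative fold change, is shown in the direction of the gene with its E-box in capitals.
SRM: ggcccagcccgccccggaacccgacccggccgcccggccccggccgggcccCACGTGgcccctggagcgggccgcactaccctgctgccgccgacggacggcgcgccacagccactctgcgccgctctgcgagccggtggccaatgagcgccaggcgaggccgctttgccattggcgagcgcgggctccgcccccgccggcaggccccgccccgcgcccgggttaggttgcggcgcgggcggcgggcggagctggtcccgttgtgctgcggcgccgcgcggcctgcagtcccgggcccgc

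Genes of cell cycle arrest stood mostly higher in KHM-5M in both treatments. Of 22 CDK inhibitors and arrest genes, 14 were higher and 3 lower under GDC-0994 (median 0.96). In DMSO 16 were higher and 4 lower (median 0.55). The change from DMSO was positive at 10 and negative at 4, against 12.3% and 15.6% of all genes tested. CITED2 (ENSG00000164442, chromosome 6, 139371807 to 139374620), a transcriptional coregulator that FOXO factors switch on, had 644, 579.5 and 582 CPM in KHM-5M and 60.8, 54.5 and 57.8 CPM in TTA-1 under the inhibitor. In DMSO it had 74, 66.1 and 67.4 and 66.9, 53.6 and 55.1 CPM. The KHM-5M libraries under GDC-0994 stood far above the other 9, with a log2 fold change of 3.38 ± 0.09 (adjusted p = 5.63e-15) and a change of 3.14 ± 0.13. CDKN2B (ENSG00000147883, chromosome 9, 22002903 to 22009363), the gene of the CDK4 inhibitor p15, had 107, 103 and 111 CPM in KHM-5M and 0.200, 0.267 and 0.346 CPM in TTA-1. It was near 0 in TTA-1 in both treatments, and its log2 fold change was 8.59 ± 0.16 under the inhibitor and 6.74 in DMSO. CDKN1C, which encodes p57, was higher as well (6.26 ± 0.19). The lower genes were GADD45A, a stress response gene (-2.74 ± 0.10), RBL1, which encodes the pocket protein p107 (-1.31 ± 0.19), and SESN1, a sestrin (-0.44 ± 0.19, adjusted p = 0.0424). The SESN1 call was lost without KHM-5M GDC-0994 replicate 1, 2 or 3 (adjusted p = 0.0579, 0.0541 and 0.192), without TTA-1 GDC-0994 replicate 3 (0.478), with DESeq2 size factors (0.0727), with upper quartile scaling (0.182) and with library totals (0.148).

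Among the BCL2 family, which decides on mitochondrial cell death, 9 of 17 were higher and 5 lower (median 0.44). BMF (ENSG00000104081, chromosome 15, 40087890 to 40108892), a BH3-only activator of death, had 193, 188 and 159 CPM in KHM-5M and 4.13, 4.41 and 3.87 CPM in TTA-1. The lines were far apart, with a log2 fold change of 5.44 ± 0.17 (adjusted p = 3.31e-14) against 2.24 in DMSO, a change of 3.20 ± 0.32. The BH3-only genes BAD (2.01 ± 0.12) and BID (1.26 ± 0.08) were higher too, while their gaps were smaller than in DMSO (changes of -0.75 and -0.48). BCL2, the survival gene of that name, was not called in DMSO (0.01) and lower in KHM-5M under the inhibitor (-2.15 ± 0.15, 2.94 ± 0.438 against 13.1 ± 0.811 CPM). HRK (-7.05 ± 0.34) and BIK (-1.40 ± 0.15), both BH3-only genes, were lower in KHM-5M, HRK with 0.0905 ± 0.0840 against 13.4 ± 0.283 CPM and -7.70 log2 without KHM-5M GDC-0994 replicate 2.

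The p53 targets were divided, with 7 higher and 8 lower of 17 (median -0.09), or 8 and 7 with upper quartile scaling (median 0.07), 7 and 7 with DESeq2 size factors, and 8 and 7 with library totals (median 0.05). MDM2, the ubiquitin ligase of p53, had 31 ± 5.02 CPM in KHM-5M and 212 ± 11.1 CPM in TTA-1 (-2.77 ± 0.12), and FAS, a death receptor (-3.01 ± 0.16), and AEN, a nuclease (-2.30 ± 0.10), were lower as well. PLK2 (1.12 ± 0.06) and the p53-dependent ribonucleotide reductase subunit RRM2B (0.94 ± 0.13) were higher.

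Growth factor receptors differed by member. Of 20 receptor tyrosine kinases tested of 32 listed, 10 were higher and 9 lower in KHM-5M. The median was 0.46, and -0.26 and -0.31 with limma on log2(FPKM + 1) and log2(FPKM + 0.1). MET (ENSG00000105976, chromosome 7, 116672390 to 116798386), the receptor of hepatocyte growth factor, had 63.9, 70 and 79 CPM in KHM-5M and 6025, 6181 and 6516 CPM in TTA-1. It was lower in every KHM-5M library than in any TTA-1 library (-6.46 ± 0.13 log2, adjusted p = 1.31e-16), and the gap widened from -5.40 in DMSO (change -1.06 ± 0.15). ROR1, a receptor of WNT5A (-3.21 ± 0.11), and EGFR, the EGF receptor (168 ± 7.73 against 466 ± 5.15 CPM, -1.47 ± 0.07), were lower too. PDGFRB, a PDGF receptor of mesenchymal cells, had 95.5 ± 8.29 CPM in KHM-5M and 1.29 ± 0.227 CPM in TTA-1 (6.21 ± 0.18). The ephrin receptor EPHB2 (2.20 ± 0.10) and the collagen receptor DDR1 (2.26 ± 0.11) were higher in KHM-5M.

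Ligands leaned to KHM-5M: 13 of 19 were higher and 5 lower, with a median of 2.63 and 2.17 in DMSO. GAS6, the ligand of AXL, had 245 ± 11.6 CPM in KHM-5M and 3.24 ± 0.468 CPM in TTA-1 (6.24 ± 0.11), and PDGFB 32.5 ± 3.04 and 0.993 ± 0.162 CPM (5.03 ± 0.20). GDNF, the ligand of the RET receptor system, had 1765 counts in KHM-5M and none in TTA-1, at least 490.1-fold higher. Such lower bounds set the line without counts to 3 counts over its 3 libraries. NRG1, a ligand of the ERBB receptors, had 13.6 ± 1.37 against 186 ± 2.62 CPM (-3.77 ± 0.09), and VEGFC was lower as well (-1.75 ± 0.09).

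Many of the genes furthest apart had no count in one line. GREM1 (ENSG00000166923, chromosome 15, 32717974 to 32745107), a secreted BMP antagonist, had 1277, 1331 and 1458 CPM in KHM-5M under the inhibitor and no count in any TTA-1 library, at least 20002-fold higher. In DMSO KHM-5M had 53.9, 55 and 50.8 CPM and TTA-1 again none. Also without a count in TTA-1 under the inhibitor were ADAMTSL1, a matrix protein (at least 1689.8-fold), GRAP2, an adaptor of T cells (at least 1502-fold), TIE1, an endothelial receptor kinase (at least 1088-fold), and PCDHB5, a protocadherin (at least 992-fold). The same held for WDR72 (at least 757-fold), FAM19A5, a secreted brain protein (at least 722-fold), and CHRDL1, a second BMP antagonist (at least 690.2-fold).

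In the other direction, CES1, a liver carboxylesterase, had 160.3 ± 11.4 CPM in TTA-1 and no count in KHM-5M, at least 2848-fold lower. OLFM1, an olfactomedin (at least 1221-fold lower), TMEM52B (at least 1082-fold), MYH14, a non-muscle myosin (at least 782-fold), NFE4 (at least 688-fold) and CELF2, a splicing regulator (at least 470.2-fold), had no count in KHM-5M either. SLC27A2, a fatty acid transporter, had 3 counts in KHM-5M and 7305 in TTA-1, a ratio of 2923 (95% counting interval 999.9 to 14179). EVI2B had 1 and 1576 counts, a ratio of 1892 (95% counting interval 339 to 74779), and WNK2, a kinase, 1 and 1304, a ratio of 1565 (95% counting interval 280.5 to 61881). FBLN2, a fibulin (-10.38 ± 0.24), OLR1, a receptor of oxidised lipoprotein (-10.31 ± 0.18), and ABCC2, a bile duct exporter (-9.74 ± 0.16), completed the largest falls from TTA-1 to KHM-5M. Of 7421 genes with at least 20 CPM in KHM-5M, 63 had at most 3 counts in TTA-1. Of 7453 genes at that level in TTA-1, 19 had at most 3 in KHM-5M.

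Positional and lineage factors differed between the lines in both treatments. Of 28 HOX genes tested of 39, 21 were higher and 4 lower in KHM-5M (median 2.56), with 21 and 4 in DMSO. The median change from DMSO was -0.24. HOXB7 had 34.8 ± 1.62 CPM in KHM-5M and 0.291 ± 0.166 CPM in TTA-1 (6.86 ± 0.21), and HOXB3 (5.20 ± 0.17) and HOXD10 (4.14 ± 0.18) were higher too. HOXC13 (-6.40 ± 0.46), HOXA11 (-3.18 ± 0.23) and HOXA9 (-2.76 ± 0.41) were lower.

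Of 45 other lineage transcription factors tested of 58, 25 were higher and 16 lower (median 1.20). RUNX2, a bone factor, had 93.3 ± 3.35 CPM in KHM-5M and 2.0 ± 0.134 CPM in TTA-1 (5.54 ± 0.11), while its relative RUNX3 had 0.405 ± 0.197 and 25.6 ± 2.51 CPM (-5.93 ± 0.31). TBX3 (5.62 ± 0.20) and the eye and brain factor PAX6 (5.52 ± 0.22) were higher in KHM-5M. SIX2, a kidney progenitor factor, had 0.242 ± 0.0788 against 69.3 ± 4.70 CPM (-8.11 ± 0.24), and TBX1 was lower as well (-4.75 ± 0.31). The RUNX and TBX genes named here thus went in both directions, and they were picked by smallest p in each direction.

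More matrix and mesenchymal genes were higher than lower in KHM-5M. Of 21 mesenchymal genes, 14 were higher and 4 lower (median 1.14), and of 35 collagens, laminins and matrix glycoproteins 24 were higher and 11 lower (median 1.35). FN1 (ENSG00000115414, chromosome 2, 215360440 to 215436172), fibronectin, had 6082, 5206 and 5229 CPM in KHM-5M and 2.27, 2.01 and 2.97 CPM in TTA-1. The libraries did not overlap, and the log2 fold change of 11.15 ± 0.13 (adjusted p = 1.03e-18) changed by 0.01 ± 0.24 from DMSO (adjusted p = 1.00). COL1A1, a chain of type I collagen, had 1816 ± 194 and 3.35 ± 0.578 CPM (9.08 ± 0.13, change 1.12 ± 0.19), and SPARC, a collagen-binding protein, 992 ± 63.7 and 3.09 ± 0.662 CPM (8.33 ± 0.12). The smooth muscle gene TAGLN (7.22 ± 0.15) and the fibroblast surface gene THY1 (7.08 ± 0.17) were higher too. LAMA4, a laminin chain, had 0.111 ± 0.0525 CPM in KHM-5M and 41.9 ± 1.77 CPM in TTA-1, and FBLN1 (-2.89 ± 0.08) and LAMB3 (-1.38 ± 0.07) were lower in KHM-5M. LAMB3 had been higher there in DMSO (0.48). S100A4 (-1.44 ± 0.13), CDH2, or N-cadherin (-0.69 ± 0.09), and ZEB1 (-0.64 ± 0.19, and -0.41 without KHM-5M GDC-0994 replicate 1) were the lower of the mesenchymal genes named.

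The epithelial list moved between the treatments. Of 21 genes, 11 were higher and 9 lower in KHM-5M under GDC-0994 (median 0.72), against 8 and 11 in DMSO (median -0.36). The change was positive at 11 and negative at 2, against 12.3% and 15.6% of all genes tested. KRT80, a keratin, had 277 ± 21.5 CPM in KHM-5M and 30.6 ± 1.29 CPM in TTA-1 (3.17 ± 0.10). JUP, or plakoglobin (1.82 ± 0.12), and CLDN7, a tight junction claudin (3.22 ± 0.22), were higher as well. KRT7 had 68 ± 1.90 and 582 ± 24.1 CPM (-3.10 ± 0.08), and CLDN1 (-2.75 ± 0.10) and the desmosome gene DSP (-1.51 ± 0.06) were also lower in KHM-5M.

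Integrins and proteases were mostly higher in KHM-5M. Of 15 integrin subunits 10 were higher and 3 lower (median 0.76). ITGA4, a fibronectin receptor subunit, had 86 ± 11.6 CPM in KHM-5M and 0.385 ± 0.177 CPM in TTA-1 (7.78 ± 0.24), with ITGB8 (5.00 ± 0.16) and ITGA3 (1.50 ± 0.08) also higher. ITGAV (-1.35 ± 0.11), ITGB2 (-1.41 ± 0.27) and ITGA6 (-0.29 ± 0.09) were lower, the last not with upper quartile scaling (adjusted p = 0.172), library totals (0.129), no filter (0.0872) or without TTA-1 GDC-0994 replicate 3 (0.0694). Among 19 proteases and inhibitors 14 were higher and 5 lower (median 1.99). MMP2, a gelatinase, had 428 ± 26.5 CPM in KHM-5M and 0.114 ± 0.105 CPM in TTA-1 (12.54 log2 without TTA-1 GDC-0994 replicate 3, 11.80 ± 0.21 with it). TIMP3, an inhibitor of such proteases, had 919.6 ± 71.2 and 0.765 ± 0.101 CPM (10.22 ± 0.15), and ADAM19 was higher (4.49 ± 0.10). SERPINB2, a urokinase inhibitor, had 759 counts in TTA-1 and none in KHM-5M, at least 304-fold lower. SERPINE2 (-2.93 ± 0.13) and TIMP1 (-0.56 ± 0.09) were lower too.

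**Figure D4:**
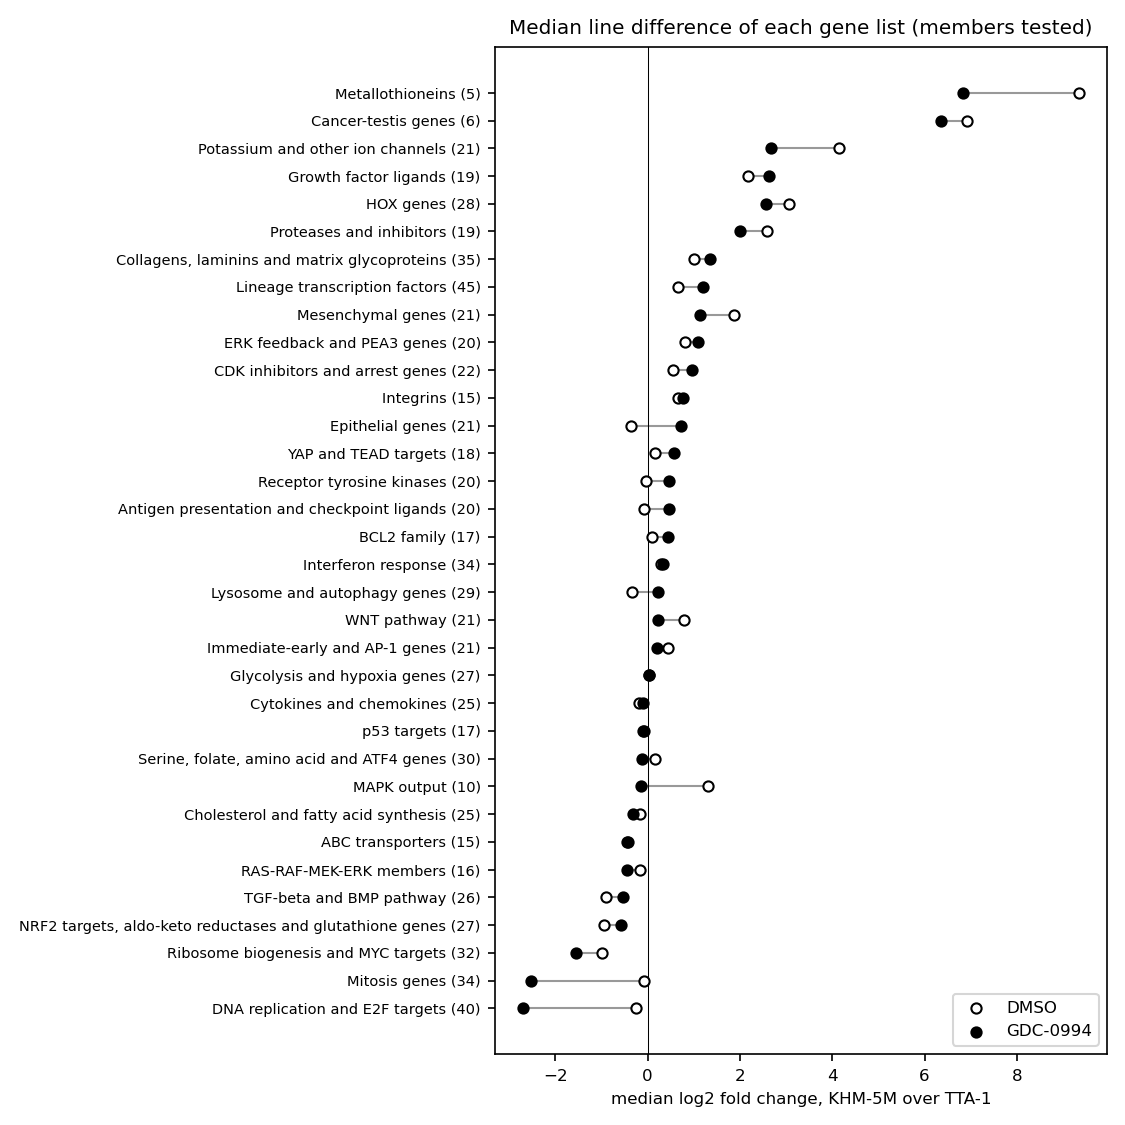
Median log2 fold change of KHM-5M over TTA-1 (horizontal axis) in DMSO (open circles) and under GDC-0994 (filled circles) for 34 gene lists, with the number of members tested in parentheses. Replication and mitosis genes have the most negative medians under GDC-0994 (-2.70 and -2.52) but not in DMSO, and the median of the MAPK output list falls from 1.32 to -0.13.

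Signalling lists were mixed. Of 18 YAP and TEAD targets, 11 were higher and 6 lower (median 0.57). The Hippo kinase LATS2 (2.71 ± 0.11), TEAD2 (3.11 ± 0.15) and ARHGEF17 (2.33 ± 0.08) were higher in KHM-5M. F3, tissue factor, had 10.9 ± 0.408 CPM in KHM-5M and 488 ± 15.5 CPM in TTA-1 (-5.48 ± 0.08), and ANKRD1 (-4.11 ± 0.08) and CRIM1 (-0.78 ± 0.07) were lower as well. In the TGF-beta and BMP list 10 of 26 were higher and 14 lower (median -0.54). TGFB2 (ENSG00000092969, chromosome 1, 218346235 to 218444619), a TGF-beta ligand, had 134, 146 and 162 CPM in KHM-5M and 22.6, 20.9 and 18.9 CPM in TTA-1 under the inhibitor, and 21.3 and 17.5 CPM in DMSO. The libraries did not overlap under the inhibitor, and the difference grew by 2.54 ± 0.15 to 2.83 ± 0.11 (adjusted p = 3.16e-13). Its receptor gene TGFBR1 widened too, to 2.20 ± 0.12 (change 1.67 ± 0.17), and LTBP2, a latent TGF-beta binding protein, was higher (4.60 ± 0.12). TGFBR3 (-5.26 ± 0.14), ID3 (-1.82 ± 0.10) and BAMBI, a decoy receptor (0.108 ± 0.0937 against 27.9 ± 0.00855 CPM), were lower.

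Of 21 WNT pathway genes 8 were higher and 6 lower (median 0.22). WNT5A, a ligand of noncanonical signalling (6.65 ± 0.19), its receptor gene FZD2 (2.29 ± 0.13) and DKK3 (4.60 ± 0.09) were higher. DKK1, a WNT antagonist, had 12.6 ± 0.700 CPM in KHM-5M and 231 ± 7.51 CPM in TTA-1 (-4.19 ± 0.10), and WNT10B (-2.78 ± 0.19) was lower. SFRP4, another antagonist, had 87 counts in TTA-1 and none in KHM-5M, at least 34.8-fold lower.

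Immune genes differed gene by gene. Of 25 cytokines, chemokines and their receptors 10 were higher and 11 lower (median -0.09, which became 0.07 under upper quartile scaling and 0.05 under library totals). The chemokine genes CXCL1 and CXCL5 had 876 and 520 counts in KHM-5M and none in TTA-1, at least 243-fold and 144-fold higher. ACKR3, a chemokine scavenger, had 3514 counts and 1, a ratio of 2927 (95% counting interval 525 to 115644). The macrophage growth factor CSF1 (42.5 ± 2.46 against 225 ± 1.21 CPM, -2.40 ± 0.10) and IL18 (-2.80 ± 0.17) were lower in KHM-5M. Of 34 interferon response genes 17 were higher and 11 lower (median 0.33). IFI27 (6.98 ± 0.17), IFITM2 (5.93 ± 0.21) and OAS2 (6.54 ± 0.40) were higher, and OAS3 (-1.53 ± 0.09) and HERC5 (-2.08 ± 0.17) lower. IFITM2 has close relatives, among which reads can be divided by the counting.

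Of 20 antigen presentation and checkpoint genes 10 were higher and 7 lower (median 0.46). ERAP2, a peptidase that trims antigens (164 ± 28.5 against 10.1 ± 1.07 CPM, 4.01 ± 0.14), and NECTIN2 (2.80 ± 0.14) were higher. CD74, the invariant chain of MHC class II, had 37.4 ± 5.38 CPM in KHM-5M and 0.112 ± 0.139 CPM in TTA-1 (log2 fold change 8.28 ± 0.31, and 9.85 without TTA-1 GDC-0994 replicate 2). The peptide transporter TAP2 (-1.73 ± 0.08), ERAP1 (-1.32 ± 0.08) and the immunoproteasome subunit PSMB9 (-1.29 ± 0.11) were lower. Of 24 cancer-testis genes 6 were tested, 4 higher and 2 lower (median 6.36, and 4.89 with genes of at most 3 counts in a line at their bound or ratio). MAGEA10 and MAGEC2 had 5112 and 4853 counts in KHM-5M and none in TTA-1, at least 1419-fold and 1347-fold higher, and DDX43 was at least 34.4-fold higher. LIN28B and PRAME had no count in KHM-5M and 132 and 40 in TTA-1, at least 52.8-fold and 16-fold lower.

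Detoxifying and metal-binding genes set the lines apart in opposite directions. Of 27 NRF2 targets, aldo-keto reductases and glutathione genes, 8 were higher and 17 lower in KHM-5M (median -0.58). AKR1C1 (ENSG00000187134, chromosome 10, 4963253 to 4983283), an aldo-keto reductase, had 7.38, 8.36 and 8.22 CPM in KHM-5M and 1341, 1259.7 and 1253 CPM in TTA-1. The gap of -7.33 ± 0.09 log2 (adjusted p = 1.24e-18) was smaller than the -8.81 of DMSO, and AKR1C2 (-7.60 ± 0.13) narrowed likewise (change 3.0 ± 0.27). These genes are near-identical copies, so how reads divide among them is uncertain. GSTM3, a glutathione transferase (-5.50 ± 0.11), was lower, and KEAP1, the inhibitor of NRF2, was higher (110.4 ± 8.88 against 11.2 ± 1.75 CPM, 3.31 ± 0.11), as was GPX8 (1.51 ± 0.08). The change was positive at 15 genes of the list and negative at 1, against 12.3% and 15.6% of all genes tested. FTL (ENSG00000087086, chromosome 19, 48965301 to 48966878), ferritin light chain, had 12668, 12081 and 11462 CPM in KHM-5M and 5021, 4894 and 4432 CPM in TTA-1 under the inhibitor, and 3910.0, 3894 and 4042 and 5218, 4398 and 4907 CPM in DMSO. The KHM-5M libraries were above the TTA-1 libraries with the inhibitor and below them without it (1.34 ± 0.07 and -0.29 log2, change 1.63 ± 0.10).

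All 5 metallothioneins tested, small proteins that bind zinc and copper, were higher in KHM-5M (median 6.83, and 6.08 with genes of at most 3 counts in a line at their bound or ratio). In DMSO 4 were higher and 1, MT1X, was lower, the latter named after its values were seen. MT1E had 10839 counts in KHM-5M and none in TTA-1, at least 3009-fold higher. MT2A had 402 ± 22.9 CPM in KHM-5M and 93.2 ± 8.14 CPM in TTA-1 (2.11 ± 0.08), and MT1F 11.1 ± 0.300 and 0.0905 ± 0.0784 CPM (6.83 ± 0.35). Members of this family are close in sequence, and reads can be divided among them by the counting.

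Metabolic lists leaned less. Of 27 glycolysis and hypoxia genes 9 were higher and 11 lower (median 0.03), or 14 and 10 with upper quartile scaling, 11 and 10 with DESeq2 size factors, and 13 and 10 with library totals. The glycolytic genes PFKL (2.15 ± 0.09) and ENO2 (1.62 ± 0.08) and the hormone gene ADM (1.81 ± 0.11) were higher. HK2, hexokinase 2, had 26.2 ± 3.01 CPM in KHM-5M and 133 ± 7.05 CPM in TTA-1 (-2.34 ± 0.09), and EGLN3 (-5.99 ± 0.24) and NDRG1 (-1.36 ± 0.07) were lower. Of 30 serine, folate, amino acid and ATF4 genes 11 were higher and 13 lower (median -0.12, which became 0.04 under upper quartile scaling and 0.01 under library totals). Their change was negative at 15 and positive at 4, against 15.6% and 12.3% of all genes tested. The folate enzymes MTHFD2 (-2.04 ± 0.08) and MTHFD1 (-1.45 ± 0.07) and the serine enzyme PSPH (-1.97 ± 0.08) were lower. ATF4, the factor of the amino acid response (1.21 ± 0.08), the folate enzyme ALDH1L2 (3.03 ± 0.13) and STC2 (0.94 ± 0.07) were higher.

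Of 25 cholesterol and fatty acid synthesis genes 5 were higher and 14 lower (median -0.31). The elongase ELOVL6 (22.3 ± 0.889 against 158 ± 0.616 CPM, -2.83 ± 0.10), HMGCS1 of the mevalonate pathway (-2.28 ± 0.10) and ACLY, which makes cytosolic acetyl-CoA (-1.13 ± 0.06), were lower. The desaturase FADS2 (2.29 ± 0.09), the sterol enzyme LSS (2.02 ± 0.09) and the regulator SREBF1 (0.81 ± 0.07) were higher. Lysosome and autophagy genes moved toward KHM-5M under the inhibitor: 16 of 29 were higher and 12 lower (median 0.22), against 9 and 15 in DMSO (median -0.33). Their change was positive at 16 and negative at 3, against 12.3% and 15.6% of all genes tested. The cathepsin genes CTSB (2.18 ± 0.07) and CTSH (3.84 ± 0.22) and the autophagy kinase ULK1 (2.20 ± 0.11) were higher. SQSTM1, an autophagy receptor, stayed lower in KHM-5M with a smaller gap (-1.42 ± 0.06, after -2.45), and the lysosomal genes GLA (-2.64 ± 0.08) and CTSL (-1.64 ± 0.09) were lower.

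Transport genes differed by member. Of 21 potassium and other ion channels 14 were higher and 5 lower (median 2.67). KCNMA1, the large-conductance calcium-activated potassium channel, had 4669 counts in KHM-5M and none in TTA-1, at least 1296-fold higher. TRPM4 (4.77 ± 0.17) was higher too, and KCNK6 had 668 counts against 3, a ratio of 185 (95% counting interval 63.2 to 902). KCNQ5 (-2.97 ± 0.13), KCNK1 (-2.63 ± 0.16) and TRPC1 (-0.83 ± 0.14) were lower. Of 15 ABC transporters 5 were higher and 9 lower (median -0.44). ABCC2 had 0.499 ± 0.236 CPM in KHM-5M and 423 ± 9.91 CPM in TTA-1, and the drug exporter ABCG2 (-3.69 ± 0.17) and the lipid transporter ABCA3 (-2.86 ± 0.14) were lower. ABCB4 had 523 counts in KHM-5M and 1 in TTA-1, a ratio of 436 (95% counting interval 77.8 to 17239), and ABCC6 (4.84 ± 0.34) and ABCA2 (1.52 ± 0.12) were higher.

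Among the genes whose line difference moved most toward KHM-5M was CRISPLD2. CRISPLD2 (ENSG00000103196, chromosome 16, 84819984 to 84920768), a secreted protein, had 77.1, 69.4 and 75.4 CPM in KHM-5M and 5.07, 3.94 and 5.53 CPM in TTA-1 under the inhibitor, and 2.42, 3.12 and 2.87 and 4.82, 4.34 and 6.06 CPM in DMSO. The KHM-5M libraries were the highest of all with GDC-0994 and the lowest without it, so that the log2 fold change went from -0.86 to 3.93 ± 0.14, a change of 4.79 ± 0.22 (adjusted p = 8.57e-11). The desmosome-linked PPL (-1.08 to 2.87), the collagen gene COL9A2 (-0.96 to 2.39) and RARRES2, the gene of chemerin (-1.48 to 1.67), changed order in the same direction. IL7R (ENSG00000168685, chromosome 5, 35852695 to 35879603), the interleukin 7 receptor, had 83.1, 90.9 and 94.8 CPM in KHM-5M and 285, 282 and 296 CPM in TTA-1. It stayed lower in every KHM-5M library, but the gap shrank from -5.19 to -1.68 log2. TP53INP1, a stress-induced autophagy gene, widened from 1.71 to 4.76.

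In the opposite direction, SLCO4A1 (ENSG00000101187, chromosome 20, 62642445 to 62685785), an organic anion transporter, did not pass the test in DMSO, with 67.3, 63.8 and 65.6 CPM in KHM-5M and 72.5, 59.2 and 65.4 CPM in TTA-1. Under the inhibitor it had 2.48, 1.94 and 2.21 and 40, 46.9 and 39.1 CPM. The groups overlapped in DMSO and were far apart with GDC-0994 (-4.24 ± 0.13 log2, adjusted p = 2.27e-14). WNT7B (ENSG00000188064, chromosome 22, 45920362 to 45977129), a WNT ligand, had 79.6, 87.5 and 83.7 CPM in KHM-5M and 12, 8.68 and 8.01 CPM in TTA-1 in DMSO, and 6.49, 5.87 and 6.38 and 7.73, 6.89 and 7.19 CPM under the inhibitor. Its difference of 3.13 log2 was no longer called under GDC-0994 (-0.22 ± 0.14, adjusted p = 0.172; change -3.35 ± 0.19). KCNK3, a potassium channel, went from 5.26 to 0.93. SPC24, a kinetochore subunit, changed order (1.62 to -1.72), E2F2 became lower in KHM-5M (-0.04 to -3.39), and RAD54L, a recombination factor, widened (-1.01 to -4.28). FAM111B widened as well (-0.77 to -4.31), to -5.47 without KHM-5M GDC-0994 replicate 3.

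The line difference was not even over the chromosomes, in either treatment. Genes of chromosome 20 had a median log2 fold change of 0.95 under the inhibitor and 0.86 in DMSO, and 297 of its 433 genes tested (68.6%) were higher in KHM-5M under the inhibitor. Chromosome 22 had a median of 0.61 and chromosome 19 one of 0.53. At the other end, chromosome 3 had a median of -0.52, with 493 of 900 genes (54.8%) lower in KHM-5M, and chromosome 15 one of -0.33. Over all genes 41.0% were higher and 39.1% lower. DNA copy number was not measured here, and its part in these medians was not tested.

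**Figure D5:**
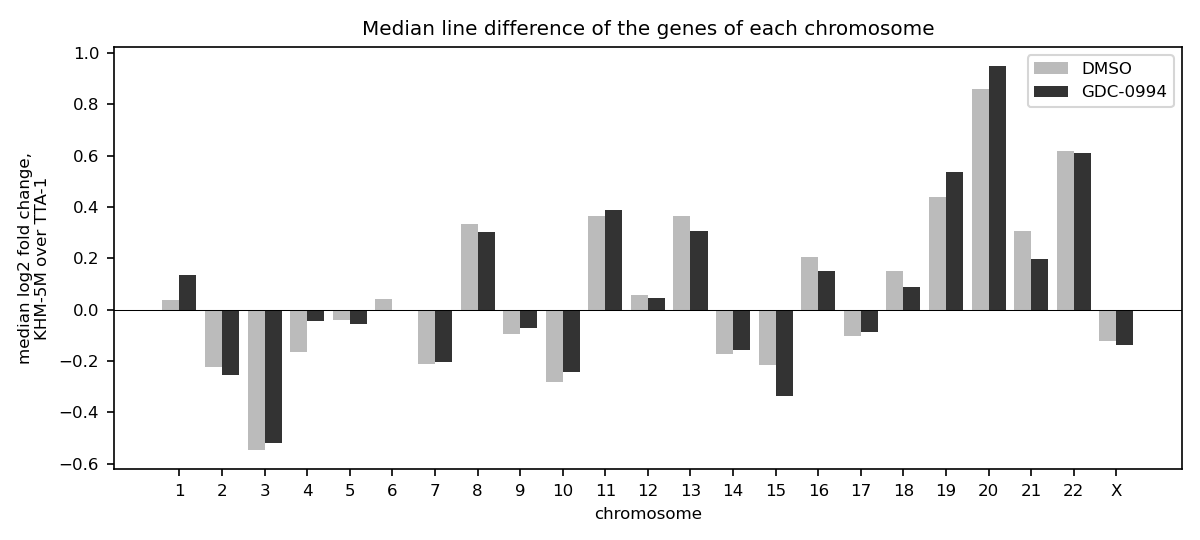
Median log2 fold change of KHM-5M over TTA-1 (vertical axis) for the genes of each chromosome, in DMSO (light bars) and under GDC-0994 (dark bars). Chromosome 20 has the highest median in both treatments (0.86 and 0.95) and chromosome 3 the lowest of those drawn (-0.55 and -0.52). Mitochondrial genes are not drawn.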

How the data were processed

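Polyadenylated RNA of 12 libraries was measured, 3 for each line and treatment, grouped by the labels. The authors deposited read counts per gene, not normalized, and FPKM values beside them. Per the submitters' processing notes, the tools were featureCounts 1.5.0-p3, HISAT2 2.0.5 and CASAVA, and the build was GRCh38. The labels' protocols record no step that marks strand, so reads of a gene and of an antisense partner cannot be told apart. Gene positions and biotypes were those in the deposited table.

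Counts were analysed in R 4.3.3 with edgeR 4.0.16. Genes were kept by filterByExpr over the 4 groups (minimum count 10, minimum total 15), which left 16218 of 58735, and libraries were scaled by TMM. A quasi-likelihood model of all 12 libraries gave both line differences and their change, with Benjamini-Hochberg adjustment over all genes tested. The deposited FPKM values entered an alternative test by limma 3.58.1 on log2(FPKM + 1) and log2(FPKM + 0.1). Other alternatives were other scalings, DESeq2 1.42.0, other filters, the 6 libraries alone, a replicate block, a minimum fold and each library left out. The fit was tested on simulated counts. Named genes were, in each list, up to 3 higher and 3 lower with the smallest p, all MAPK output and RAS-RAF-MEK-ERK members, the 12 protein-coding genes with the largest line difference in each direction (called, at least 20 CPM in the higher line, libraries not overlapping), and the 8 with the largest called change in each direction (at least 1 CPM in all 4 groups). The rule passes over X inactivation transcripts, Y-linked genes and HLA genes with near-identical copies. Some genes that the rule names are not reported here. The 34 gene lists, 7 further marker lists and the comparison itself were chosen with earlier results of these data known. Promoters came from RefSeq on GRCh38.p14. Counts per library limit precision as counting error, and intervals cover counting error only.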

Additional observations from a re-analysis of the deposited data

Results flagged for a closer look

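The difference between the lines differed between the treatments at 4527 genes, by the test of that change itself. Toward KHM-5M under GDC-0994 it moved by 4.79 log2 at CRISPLD2, 3.95 at PPL, 3.51 at IL7R, 3.35 at COL9A2, 3.20 at BMF, 3.15 at RARRES2, 3.14 at CITED2 and 3.05 at TP53INP1. Toward TTA-1 it moved by -4.33 at KCNK3, -4.24 at SLCO4A1, -4.01 at ETV4, -3.55 at FAM111B, -3.35 at WNT7B, -3.35 at E2F2, -3.33 at SPC24 and -3.26 at RAD54L. Of the other MAPK output genes, the change was -2.90 at ETV5, -2.47 at SPRY2, -2.12 at DUSP4, -2.06 at DUSP6, -2.04 at CCND1, -1.39 at SPRY4, -0.86 at PHLDA1 and -0.73 at EPHA2. The change at DUSP6 was not called without TTA-1 GDC-0994 replicate 2 (-1.20, adjusted p = 0.217 by edgeR), and that at FAM111B was -4.71 without KHM-5M GDC-0994 replicate 3.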

How the results depend on the processing

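No named gene that was called changed its direction under an alternative that was run. Of the named genes, 34 line differences and 4 changes lost their call under at least 1 alternative, most of them against the minimum fold, and 1 change gained one. Medians of near-even lists changed sign: immediate-early genes to -0.09 and -0.10 and receptor tyrosine kinases to -0.26 and -0.31 with limma on FPKM (pseudocounts 1 and 0.1), p53 targets to 0.12 and 0.17 with the same, to 0.19 with the stricter filter and 0.01 without a filter, and cytokines to 0.01 without a filter and 0.12 without TTA-1 GDC-0994 replicate 3. The cause was not tested. Against a minimum fold of 1 log2, 6694 genes differed between the lines under GDC-0994 (3759 higher and 2935 lower in KHM-5M), 5597 in DMSO (3319 and 2278), and 653 for the change (201 positive and 452 negative). With each library left out in turn, 12674 to 12894 genes differed under GDC-0994 (6543 to 6785 higher, 5967 to 6248 lower), the change was called at 3768 to 5186 (1650 to 2636 positive, 1992 to 2550 negative), and the difference in MAPK output was -0.67 to -0.54. No pairing by replicate number was clear between the lines, and so few pairs cannot exclude one. Deviations of same-numbered libraries correlated by -0.016 to 0.174 under GDC-0994 and -0.018 to 0.127 in DMSO. Those of others correlated by -0.199 to 0.131 and -0.145 to 0.151. Pairing of the treatments within a line was not tested. The numbers of the KHM-5M GDC-0994 libraries come from sample titles alone, since their descriptions are identical, and the pairing and the block rest on them. With a replicate block 13014 genes differed under GDC-0994 (6632 higher, 6382 lower), 12419 in DMSO and 4567 for the change, and the call at SESN1 was lost (adjusted p = 0.0512). Other scalings moved the median of all genes by 0.05 (DESeq2 size factors), 0.16 (upper quartile) and 0.13 (library totals). Each line is 1 culture medium and 1 genotype, and genes of a few counts in a line are limited by depth.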

Other observations

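Markers of other cell types were mostly at or near 0, with exceptions in both lines. The summed level of 8 endothelial markers under GDC-0994 was 73.2 to 81.9 CPM in KHM-5M and 1.52 to 2.94 CPM in TTA-1, of which TIE1 made up most in KHM-5M (73.3 CPM), and 2 and 4 of the 8 had no count. The 8 fibroblast and pericyte markers summed to 444 to 504 CPM in KHM-5M and 114 to 120 CPM in TTA-1, mostly MCAM in both (345 and 112 CPM). The 10 melanocyte and neural markers summed to 73.0 to 79.8 CPM in KHM-5M, mostly NCAM1 (69.7 CPM), and 10.2 to 13.9 CPM in TTA-1. There MITF made up most (9.91 CPM, against 4.13 CPM in KHM-5M). The 12 blood cell markers summed to 2.33 to 3.26 CPM in KHM-5M and 0.138 to 0.600 CPM in TTA-1, with 6 and 7 at 0. The 7 C cell markers summed to 2.55 to 3.74 CPM in KHM-5M and 0.134 to 0.830 CPM in TTA-1, and the 6 skeletal muscle markers to 1.11 to 1.49 and 0.533 to 0.830 CPM. The part of other cells in the line differences was not tested. The 16 thyroid follicular markers summed to 133 to 141 CPM in KHM-5M, mostly PAX8 (120 CPM), and 445 to 465 CPM in TTA-1, mostly DIO2 (431 CPM). Of the 6 that were tested, 4 were higher and 2 lower in KHM-5M under GDC-0994.

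By kind of gene, 306 of 697 long intergenic RNAs tested were higher and 208 lower in KHM-5M under GDC-0994 (median log2 fold change 0.45). Of 503 processed pseudogenes, whose reads can belong to their parent genes, 132 were higher and 191 lower (median -0.35). Of 801 antisense RNAs 272 were higher and 229 lower (median 0.14).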
